A study of Bos taurus with 22 samples.

Results

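Transcripts of the mitochondrial fatty acid oxidation enzymes were measured in subcutaneous adipose tissue of heifers on either side of their first calving. The members were all probe sets whose single gene symbol in the array's annotation was CPT1A, CPT1B, CPT2, SLC25A20, ACADVL, ACADM, ACADS, HADHA, HADHB or ACAA2. Of these 10 genes, 9 had such a probe set, out of 9155 genes with a name on the array, and CPT1A had none and is not analysed here. The 9 genes were read by 10 probe sets, 2 of them for SLC25A20, and all 10 passed the filter on low signals.

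Adipose tissue stores fatty acids and releases them, and it can also burn some of them itself. A long chain fatty acid is activated to its CoA ester and carried into the mitochondrion by the carnitine shuttle, then shortened in rounds by a dehydrogenase, a hydratase, a hydroxyacyl-CoA dehydrogenase and a thiolase. Malonyl-CoA, the building block of fatty acid synthesis, blocks the first step of the shuttle. After calving, a dairy cow draws on adipose tissue to supply milk fat and energy.

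The postpartum group held 11 arrays of tissue taken 14 days after calving, and the prepartum group 11 arrays of tissue taken 30 days before it. By the cow numbers in the titles, both groups came from the same 11 Holstein heifers, which were 24 to 28 months old, shared a farm and received no dietary treatment. All were fed a haylage, hay and concentrate ration without restriction before calving. Calving, the start of lactation and any change of ration lay between the samplings and cannot be told apart. A further code in the titles, of unstated meaning, formed 2 blocks of animals, array set 2 with 6 cows and array set 1 with 5, and the samples of an animal always stood in the same block.

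The samples were pieces of whole tissue from the dorsal subcutaneous depot, so fewer cells of a type and less RNA per cell cannot be told apart. The adipocyte hormone ADIPOQ was present on every array, at signals of 736 to 3144 (median 1960) postpartum and 1339 to 3091 (median 2082) prepartum. The summed signal of 16 of 28 listed skeletal muscle markers that passed the filter ran from 1504 to 114624 (median 2173) postpartum and from 1529 to 68234 (median 1975) prepartum, and none of them was at 0. Both maxima were single arrays, that of cow 384 after calving and the one labelled cow 387 before it, and the next highest sums were 11815 postpartum (cow 386) and 8346 prepartum (cow 384). The 2 arrays of cow 387 also did not deviate together from their group means (r = -0.09 over probe sets, against 0.18 to 0.43 for the other 10 cows). A wrong label of that pair and the muscle signal of its prepartum array cannot be told apart here. Changes and calls that these cows move are therefore also given without cows 384 and 387. Of the other tissue markers, 3 of 13 adipocyte markers fell (LEP, LPL and GPD1), 2 of 10 endothelial markers rose (VWF and TEK), and 0 of 12 macrophage markers passed although all 12 had a positive change. Over all 6984 genes tested, 1.55% were called higher, 2.16% were called lower, and 3676 had a positive change. Only 2 of 10 listed epidermal markers passed the filter, KRT10 and KRT5. The 4 prepartum arrays of cows 330, 331, 341 and 382 had a raised median of these 2, with KRT10 signals of up to 6002 prepartum against at most 112 postpartum. The KRT5 probe set in that median was not raised (109 to 234 prepartum, 81.7 to 234 postpartum). The other KRT5 probe set reached 1955 prepartum against at most 20.2 postpartum. The muscle markers were used as a covariate in an alternative fit. The part that any of these cell types had in the changes given next was not tested.

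Of the 9 oxidation genes, 1 passed the test after calving. ACADVL, the dehydrogenase that opens the oxidation of very long and long chain acyl-CoA, rose 1.58-fold, and none of the other 8 genes passed. Changes are differences of log2(signal + 7.78) between the postpartum and the prepartum array of a cow, tested with limma and adjusted over 14410 probe sets by Benjamini-Hochberg at 0.05. In all, 494 of the 14410 probe sets (3.43%) and 259 of 6984 genes (3.71%) were called, and by direction 208 probe sets (1.44%) and 108 genes (1.55%) were called higher postpartum and 286 probe sets (1.98%) and 151 genes (2.16%) lower. The single call among 9 members has to be read against that background. The median change of the 9 genes was 0.05 log2 units, against 0.01 over all 6984 genes tested. Of the 8 genes other than ACADVL, 0 had an unadjusted limma p under 0.05. Without cows 384 and 387, 573 genes (8.20%) were called over the whole array, 267 of them (3.82%) higher, and ACADVL was still the 1 call among the members. The median member change was then -0.003.

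**Figure D1:**
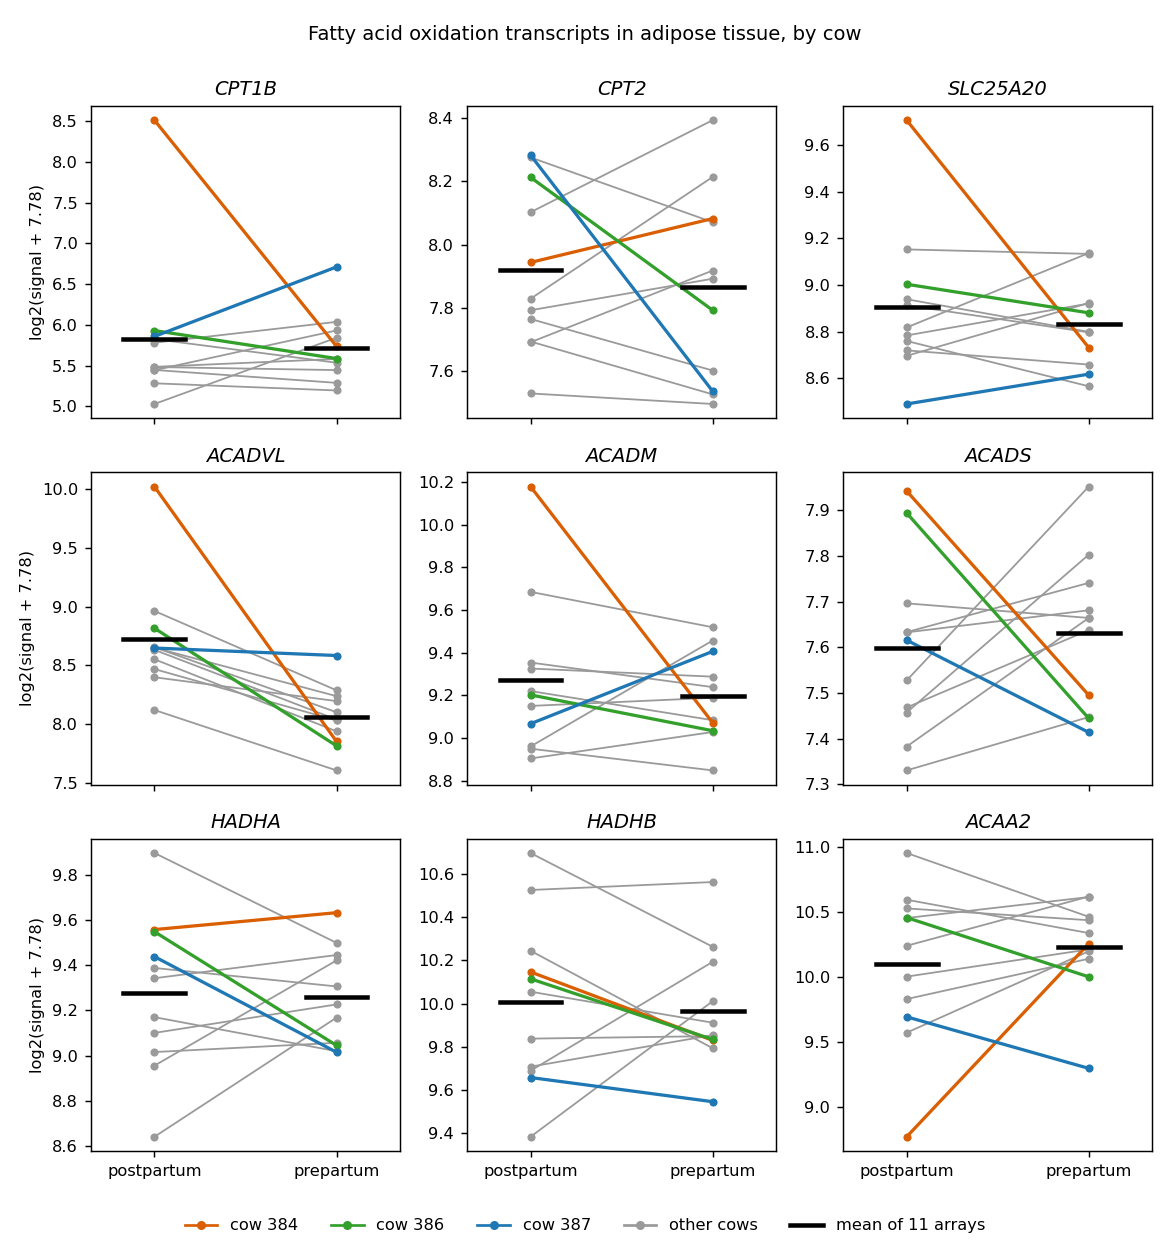
Signal of the 9 oxidation enzyme genes on the scale log2(signal + 7.78), with each cow's postpartum array (left) joined to its prepartum array (right) and a black bar at the mean of the 11 arrays of a group. ACADVL was higher postpartum in 11 of 11 cows, while lines of the other genes run in both directions; cow 384 (orange) had the highest postpartum signal of CPT1B, SLC25A20, ACADVL and ACADM and the lowest of ACAA2.

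The carnitine shuttle was followed through 3 genes, and none of them passed the test. CPT1B, the muscle type of carnitine palmitoyltransferase 1, loads the fatty acid onto carnitine at the outer mitochondrial membrane. Its lowest, median and highest signals were 24.9, 37.0 and 357 postpartum, against 28.8, 40.3 and 97.0 prepartum. The groups overlapped almost completely, and each maximum came from 1 array: 357 was the postpartum array of cow 384, with the next highest at 53.2, and 97.0 was the prepartum array labelled cow 387, with the next highest at 57.9. These are the 2 arrays with the most skeletal muscle signal. The change was 0.11 log2 units (SE 0.25, 95% interval -0.44 to 0.65, limma adjusted p = 0.856, higher in 6 of 11 cows), and without cows 384 and 387 it was -0.08 (95% interval -0.36 to 0.20).

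SLC25A20, the carrier that exchanges acylcarnitine for carnitine across the inner membrane, had signals of 352, 443 and 828 postpartum (lowest, median, highest) and 371, 437 and 555 prepartum. The groups overlapped, and only the postpartum array of cow 384 lay above the prepartum range apart from cow 330, whose 561 was just over it. The change was 0.07 (SE 0.10, 95% interval -0.14 to 0.29, limma adjusted p = 0.732, higher in 7 of 11 cows), and -0.003 without cows 384 and 387. The second probe set of SLC25A20 was far dimmer, so it was kept only as a repeat measurement: its signals were 42.6, 59.8 and 120.4 postpartum and 34.9, 53.2 and 90.4 prepartum. It also did not pass, with a change of 0.17 (SE 0.17, 95% interval -0.20 to 0.54, limma adjusted p = 0.628), or 0.07 without those cows.

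CPT2, which hands the fatty acid back to CoA inside the mitochondrion, had signals of 177, 219 and 304 postpartum and 173, 229.7 and 329 prepartum. The ranges covered each other, with a change of 0.05 (SE 0.10, 95% interval -0.16 to 0.27, limma adjusted p = 0.810, higher in 6 of 11 cows), and -0.002 without cows 384 and 387. CPT2 was the member whose level differed between the array sets, a comparison chosen after its values were seen. On the mean of a cow's 2 arrays it was 8.06 ± 0.12 log2 units in array set 2 and 7.69 ± 0.14 in array set 1 (SD, n = 6 and 5 cows), a difference of 0.37 (limma adjusted p = 0.018), and 0.42 without cows 384 and 387 (adjusted p = 0.015). Its signals ran from 178 to 329 (median 265) in array set 2 and from 173 to 234 (median 199) in array set 1. This call is 1 of 2188 probe sets (15.2%) whose level differed between the sets, and it was lost without cow 338 (adjusted p = 0.0504) and without cows 330, 331, 341 and 382 together (0.121). The level of the other members was not called, with HADHA the closest (0.29 higher in array set 2, adjusted p = 0.095).

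Of the 3 chain length dehydrogenases, ACADVL was the 1 that passed. It had signals of 270.4, 393 and 1033 postpartum, against 187, 255 and 376 prepartum. The postpartum array was higher than the prepartum array in all 11 cows, although the group ranges overlapped. Cow 331 was lowest in both groups, the 1033 was the postpartum array of cow 384 (next highest 492, cow 330), and the 376 was the prepartum array labelled cow 387 (next highest 305, cow 330).

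On the log2 scale ACADVL averaged 8.72 ± 0.48 postpartum and 8.06 ± 0.27 prepartum (SD, n = 11 each), a change of 0.66 (SE 0.15, 95% interval 0.34 to 0.98, limma adjusted p = 0.029). The changes of single cows ran from 0.06 in cow 387 to 2.17 in cow 384, with a median of 0.55. An exact two-sided sign-flip permutation test over the 11 cows gave p = 0.000977, the smallest that 2048 sign assignments can give. With all 11 changes positive, no other p was possible. The test was run on ACADVL alone, on the changes that gave its call, and is not adjusted over genes. It therefore adds no separate support. Without cows 384 and 387 the change was 0.56 (95% interval 0.39 to 0.72, limma adjusted p = 0.002), and without cow 386 as well it was 0.50 (adjusted p = 0.004). It was 0.62 with the muscle marker median of each array as a covariate (adjusted p = 0.006). In that fit CPT1B changed by 0.04, ACADM by 0.05 and ACAA2 by -0.11, and no member but ACADVL was called.

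The call sat close to the threshold. Leaving out any 1 of cows 330, 341, 346, 347, 360, 382 and 386 ended it, with limma adjusted p from 0.003 to 0.058 and a change from 0.51 to 0.72 over the 11 omissions. It was also not reached with an ordinary paired test (adjusted p = 0.078), without cows 330, 331, 341 and 382 (change 0.74, adjusted p = 0.290), in array set 2 alone (0.82, higher in 6 of 6 cows, adjusted p = 0.309) or in array set 1 alone (0.47, higher in 5 of 5, adjusted p = 0.078). Over the whole array, 6 of 14410 probe sets passed without cows 330, 331, 341 and 382, and 0 passed in array set 2 alone. The loss of the call in these settings is therefore not particular to ACADVL. The ACADVL change did not differ detectably between the sets (array set 2 minus 1: 0.35, limma p = 0.261, adjusted p = 0.997).

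ACADM, the medium chain enzyme, had signals of 472, 581 and 1151 postpartum and 453, 576 and 726 prepartum. Only cow 384 (1151) and cow 331 (816) lay above the prepartum range after calving. The change was 0.08 (SE 0.11, 95% interval -0.17 to 0.32, limma adjusted p = 0.762, higher in 7 of 11 cows), and 0.01 without cows 384 and 387.

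ACADS, the short chain enzyme, had signals of 153, 188 and 238 postpartum and 163, 195 and 239.8 prepartum. The ranges coincided, and the change was -0.03 (SE 0.09, 95% interval -0.23 to 0.17, limma adjusted p = 0.885, higher in 4 of 11 cows), and -0.11 without cows 384 and 387. Its change averaged 0.14 in array set 2 (higher in 3 of 6 cows) and -0.24 in array set 1 (higher in 1 of 5 cows). That difference of 0.38 had an unadjusted limma p of 0.039 and an adjusted p of 0.997. No probe set of 14410 (0%) was called for a difference between the array sets, while 516 had an unadjusted limma p under 0.05, as did 578 in the ordinary test, which also called 0.

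Whether the 3 dehydrogenases changed unequally was tested within cows, with exact two-sided sign-flip permutation tests adjusted over the 3 pairs. That ACADVL had passed was known when the pairs were set, so the tests that hold it add no separate support for its call. The ACADVL change exceeded the ACADM change by 0.58 log2 units (SD 0.26, n = 11 cows, 11 of 11 positive, exact adjusted p = 0.003). With all 11 differences positive, the unadjusted sign-flip p of 0.000977 was the smallest that 2048 sign assignments can give, whatever their size. The ACADVL change exceeded the ACADS change by 0.69 (SD 0.45, n = 11, 10 of 11 positive, exact adjusted p = 0.003). ACADM and ACADS differed by 0.11 (SD 0.41, n = 11, 7 of 11 positive, exact adjusted p = 0.392), less than the spread between cows.

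**Figure D2:**
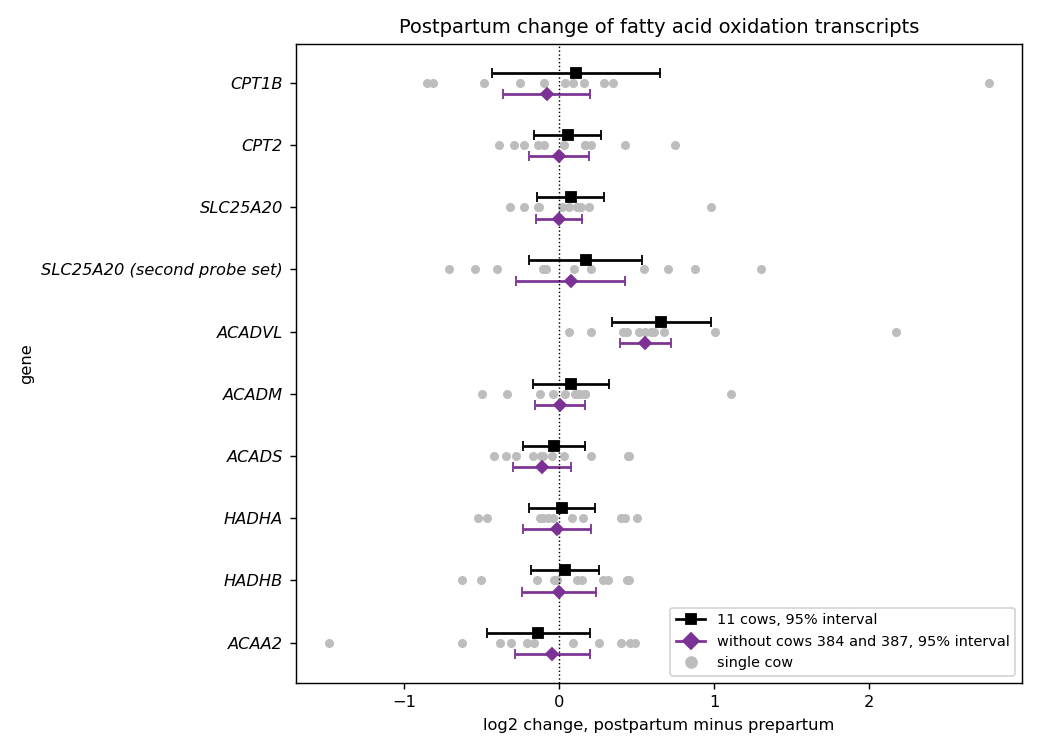
Log2 change, postpartum minus prepartum, of the 10 oxidation probe sets: grey points are single cows, black squares the limma estimate over 11 cows and purple diamonds the estimate without cows 384 and 387, each with its 95% interval. The ACADVL intervals (0.34 to 0.98 and 0.39 to 0.72) lie above 0, and those of the other 9 probe sets include 0.

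The later steps of the cycle were read through HADHA, HADHB and ACAA2, and none of them passed the test. HADHA encodes the alpha subunit of the trifunctional protein, with its hydratase and long chain hydroxyacyl-CoA dehydrogenase. Its signals were 391, 641 and 945 postpartum and 509, 591 and 786 prepartum. The postpartum array of cow 341 was the lowest of all and that of cow 330 the highest, so the postpartum range enclosed the prepartum one. The change was 0.02 (SE 0.10, 95% interval -0.19 to 0.23, limma adjusted p = 0.940, higher in 5 of 11 cows), and -0.01 without cows 384 and 387.

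HADHB encodes the beta subunit, the thiolase of the same complex. Its signals were 660.4, 1056 and 1653 postpartum and 740.0, 918 and 1505 prepartum, again with overlapping groups. The change was 0.04 (SE 0.10, 95% interval -0.18 to 0.26, limma adjusted p = 0.882, higher in 6 of 11 cows), and -0.002 without cows 384 and 387.

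ACAA2, the mitochondrial thiolase for medium chain substrates, had signals of 429, 1202 and 1978 postpartum and 621, 1215 and 1566 prepartum. The lowest array of each group was the one with the most skeletal muscle signal, cow 384 postpartum and the array labelled cow 387 prepartum. The change was -0.13 (SE 0.16, 95% interval -0.47 to 0.20, limma adjusted p = 0.678, higher in 5 of 11 cows), and -0.04 without those cows.

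The members went in different directions on the muscle-rich arrays. Relative to each gene's median over 22 arrays, the postpartum array of cow 384 had CPT1B at 2.93 log2 units, ACADVL at 1.68, ACADM at 0.98 and SLC25A20 at 0.90, while ACAA2 was at -1.48. The prepartum array labelled cow 387 had CPT1B at 1.13, ACADVL at 0.24, ACADM at 0.21, SLC25A20 at -0.19 and ACAA2 at -0.95. CPT2, ACADS, HADHA and HADHB stood at 0.08, 0.31, 0.29 and 0.26 for cow 384. For cow 387 they stood at -0.32, -0.22, -0.25 and -0.34, so these and SLC25A20 changed sign between the 2 arrays. CPT1B, ACADVL and ACADM were thus above their medians and ACAA2 below its median on both arrays, where the muscle marker median stood at 8.16 (cow 384) and 7.43 (cow 387). For cow 386 after calving, with a muscle marker median of 4.42, CPT1B was at 0.34 and ACAA2 at 0.21. UCP3, a mitochondrial carrier of muscle, was below the filter and had signals of 4.1, 6.9 and 1544 postpartum and 3.0, 12.3 and 299 prepartum. The brown adipocyte protein UCP1 was also below the filter, with at most 16.8 postpartum and 19.0 prepartum.

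**Figure D3:**
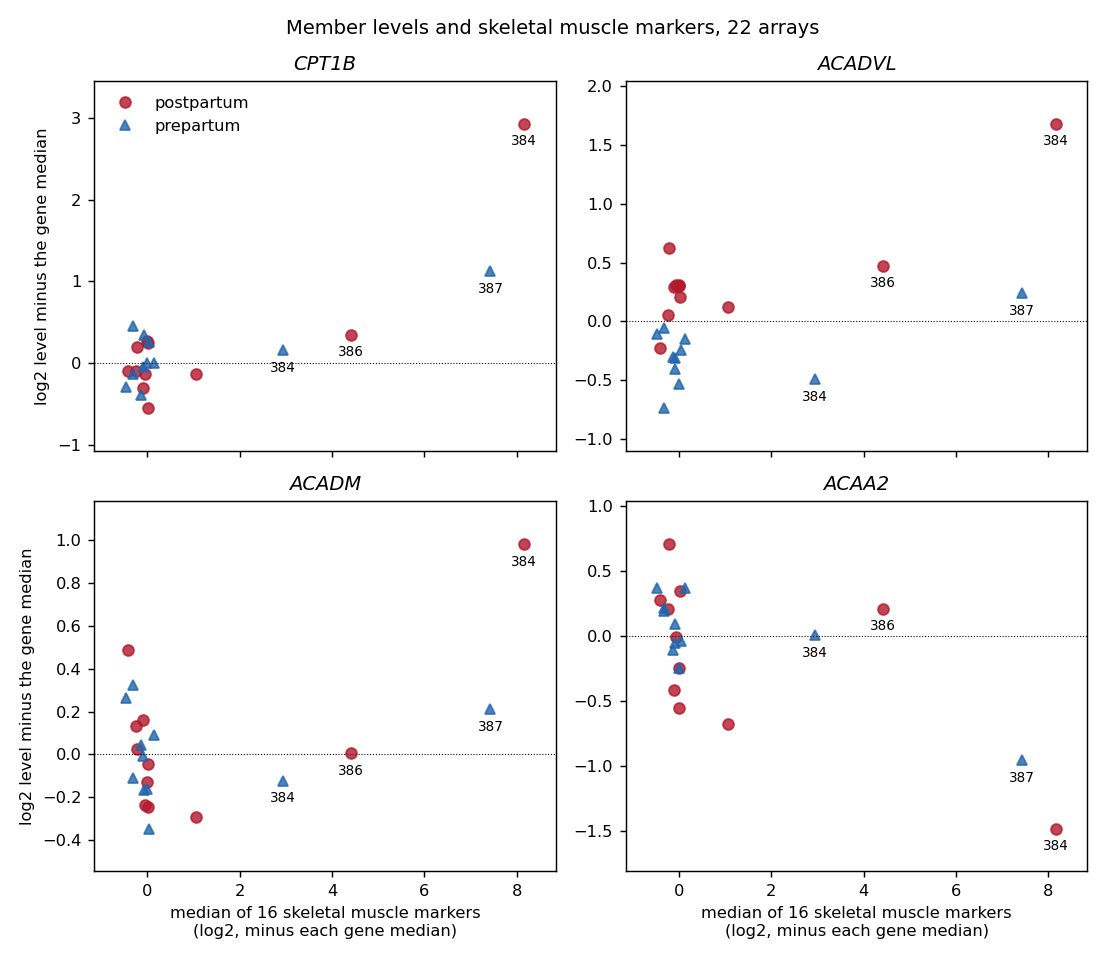
Level of CPT1B, ACADVL, ACADM and ACAA2 minus the gene's median over 22 arrays (vertical, log2 units) against the median of 16 skeletal muscle markers on the same array (horizontal, log2 units), with postpartum arrays as red circles and prepartum arrays as blue triangles. The arrays at 8.16 (cow 384, postpartum) and 7.43 (cow 387, prepartum) carry the highest CPT1B values and the lowest ACAA2 values; among the arrays near 0, most postpartum points of ACADVL lie above the prepartum ones.

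Levels of the members were only loosely related across arrays. These correlations are descriptions over arrays that share cows, and 4 arrays share muscle signal. Over 22 arrays the 36 pairs of genes had a median Pearson r of 0.20 (range -0.63 to 0.68), and over the 18 arrays without cows 384 and 387 a median of 0.16 (range -0.52 to 0.86). Several pairs depended on those cows. CPT1B with ACAA2 had r = -0.63 over 22 arrays and 0.39 over 18, CPT1B with ACADM 0.60 and -0.23, and CPT1B with ACADVL 0.68 and 0.06.

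HADHB and ACAA2, enzymes of the last step, were the closest pair over 18 arrays. They had r = 0.59 over 22 arrays, where ACAA2 ranked 31 of 6983 genes for HADHB, and 0.86 over 18, where it ranked 1. HADHB and HADHA, the subunits of the trifunctional protein, are direct neighbours in the RefSeq gene table of ARS-UCD2.0. They had r = 0.48 over 22 arrays and 0.58 over 18. HADHA ranked 127 of 6983 for HADHB over the 22 and 103 over the 18. The change of HADHB had the same sign as that of ACAA2 in 10 of 11 cows and as that of HADHA in 10 of 11 cows, cow 384 being the exception each time. CPT2 and HADHA had r = 0.60 over 22 arrays and 0.55 over 18.

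**Figure D4:**
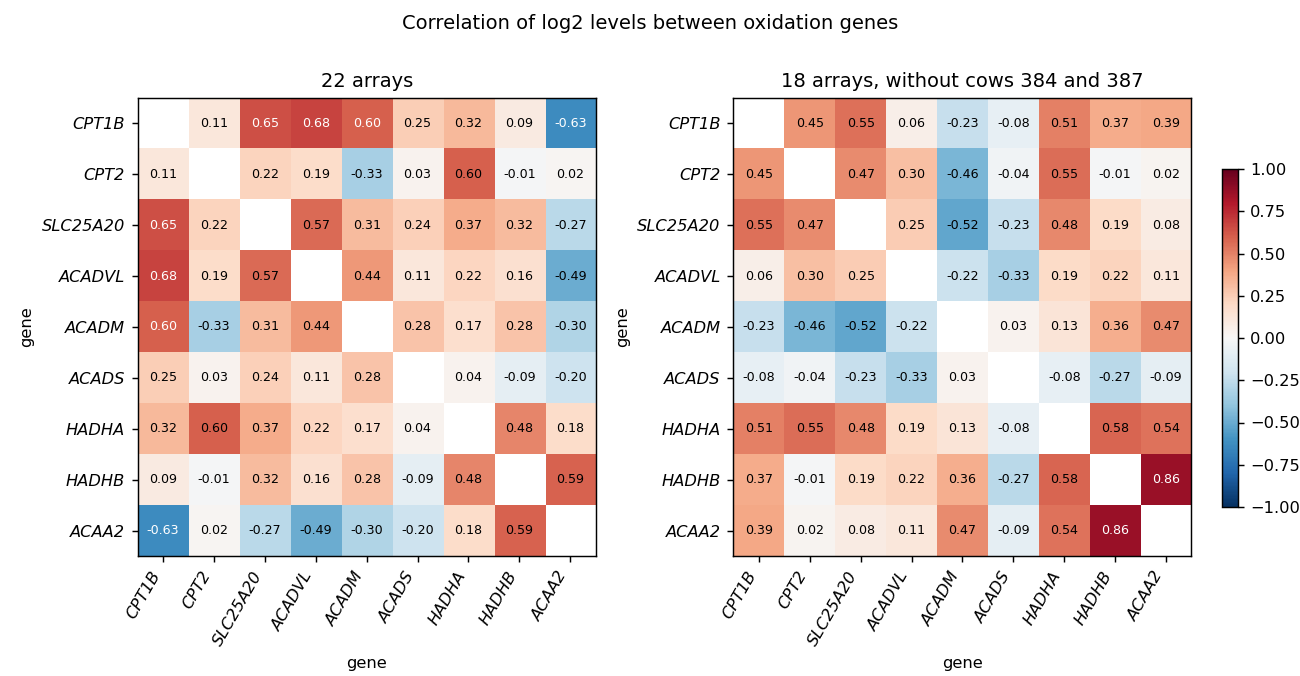
Pearson correlation of log2 levels between each pair of the 9 oxidation genes over 22 arrays (left) and over the 18 arrays without cows 384 and 387 (right), from -1 (blue) to 1 (red). HADHB with ACAA2 is the darkest pair on the right (0.86), and the pairs of CPT1B with ACAA2 (-0.63 and 0.39) and with ACADM (0.60 and -0.23) change colour between the panels.

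Over both times together, the genes whose levels were most like that of ACADVL also depended on those cows. Over 22 arrays they were EIF4A2, a translation initiation helicase (r = 0.88, change 0.41, limma adjusted p = 0.033), NXN (0.87) and BTC (0.87). Over 18 arrays they were TMEM140 (r = 0.90, change 0.84, limma adjusted p = 0.001), TMEFF1 (0.87, change 0.79, adjusted p = 0.012) and SLC25A28, a mitochondrial iron carrier (0.87, change 0.29, adjusted p = 0.060). For CPT1B, the member with the widest range over the arrays (3.48 log2 units), the closest genes over 22 arrays were CYB5R1 (0.94), MLF1 (0.93) and RAB12 (0.92), whose r over 18 arrays lay between 0.34 and 0.47. Over 18 arrays they were HSPBP1 (0.78), TMEM53 (0.76) and COL4A1 (0.69).

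Around these enzymes, the remaining genes of the pathway gave few calls. The shares over all 6984 genes were 1.55% called higher and 2.16% called lower. Without cows 384 and 387 these shares were 3.82% and 4.38%. Of the other mitochondrial beta oxidation genes, 13 of 15 were tested, 1 rose and 0 fell, with a median change of -0.11. The 1 was ACAD10, an acyl-CoA dehydrogenase family member (signals 31.7 to 90.3, median 61.7, postpartum and 27.2 to 66.0, median 44.8, prepartum), with a change of 0.41 (limma adjusted p = 0.045, higher in 11 of 11 cows). Its call was lost in 10 of the 11 omissions of a cow and without cows 384 and 387 (adjusted p = 0.053). DECR1, the reductase for unsaturated acyl-CoA, had a change of -0.44 (adjusted p = 0.119, and 0.035 without those cows).

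Of the genes for carnitine supply and other carnitine transferases, 3 of 6 were tested, 1 rose and 0 fell. SLC22A5, the plasma membrane carnitine transporter, had a change of 0.51 (limma adjusted p = 0.041, higher in 10 of 11 cows), with signals of 37.0 to 88.6 (median 57.4) postpartum and 24.8 to 56.5 (median 39.5) prepartum. Its call was lost in 8 of the 11 omissions of a cow, and the other probe set of SLC22A5 had a change of 0.16 (adjusted p = 0.642). CROT, the peroxisomal carnitine octanoyltransferase, had a change of 0.32 (adjusted p = 0.113, and 0.044 without cows 384 and 387). In the fit without these cows, 3.82% of all genes were called higher.

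Of the genes for fatty acid activation, 6 of 8 were tested and 0 passed. The largest changes were those of ACSM1, a medium chain acyl-CoA synthetase (-0.77, limma adjusted p = 0.096), and ACSL1, a long chain acyl-CoA synthetase (-0.48, adjusted p = 0.079). Both passed without cows 384 and 387 (limma adjusted p = 0.037 and 0.041), where 4.38% of all genes were called lower. Of the peroxisomal oxidation genes, 7 of 10 were tested, 1 rose and 0 fell. ACAA1, the peroxisomal thiolase, had signals of 246 to 445 (median 348) postpartum and 229 to 313 (median 262) prepartum, with a change of 0.33 (limma adjusted p = 0.030, and 0.009 without cows 384 and 387, higher in 10 of 11 cows). Its call was lost in 7 of the 11 omissions of a cow. SCP2 had a change of -0.25 (adjusted p = 0.118). No ketone body gene of 4 passed the filter.

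The control of the shuttle by malonyl-CoA was read through 5 of 7 listed genes, of which 1 fell and 0 rose. ACACA, the acetyl-CoA carboxylase that makes malonyl-CoA for fatty acid synthesis, had signals of 34.7 to 294 (median 86.5) postpartum and 80.9 to 511 (median 281) prepartum. Its change was -1.40 (limma adjusted p = 0.021, lower in 10 of 11 cows), and the call was lost in 4 of the 11 omissions of a cow (330, 341, 346 and 382). The other probe set of ACACA had a change of -1.37 (adjusted p = 0.012). MLYCD, which removes malonyl-CoA, had a change of -0.22 (adjusted p = 0.539). ACACB, the carboxylase isoform linked to the mitochondrial surface, was below the filter, with signals of 5.0, 16.9 and 339 postpartum and 1.7, 14.9 and 69.3 prepartum.

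Of the PPAR and PGC-1 regulators, which drive oxidation genes in liver and muscle, 5 of 9 were tested and 0 passed. The largest changes were those of PPARG (-0.25, limma adjusted p = 0.519) and PPARD (-0.18, adjusted p = 0.334), and PPARA was below the filter. Of their known target genes, 7 of 12 were tested, 2 rose and 0 fell, with all 7 changes positive and a median of 0.51 (6 of 7 and 0.21 without cows 384 and 387). Over all 6984 genes, 3676 changes were positive and 1.55% were called higher (3.82% without cows 384 and 387). PDK4, a kinase that inhibits the pyruvate dehydrogenase complex, had a change of 0.74 (limma adjusted p = 0.021), lost without cow 330 or without cow 346. Its other 2 probe sets were called as well, with 1.03 (adjusted p = 0.015) and 1.42 (adjusted p = 0.002). ANGPTL4, an inhibitor of lipoprotein lipase, had a change of 0.74 (adjusted p = 0.008). UCP2 had a change of 0.83 but did not pass (adjusted p = 0.148, and 0.018 without those cows).

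Downstream of oxidation, 38 of 40 respiratory chain genes were tested and 0 passed. A negative change was seen in 29 of the 38, against 3308 of all 6984 genes, and the median of the 38 was -0.08. UQCRFS1 (-0.29, limma adjusted p = 0.216) and COX8A (-0.26, adjusted p = 0.312) had the largest. Without cows 384 and 387, 4 of the 38 were called lower (NDUFC1, NDUFV2, UQCRFS1 and ATP5MC3), against a background of 306 genes (4.38%) called lower. Of the tricarboxylic acid cycle genes, 10 of 13 were tested and 0 passed, and the largest changes were those of IDH2 (0.25) and IDH3A (-0.12). In fatty acid synthesis, 4 of 13 tested genes fell, all 13 had a negative change and the median was -0.56, against the 2.16% of all genes called lower. Besides ACACA these were FASN (-1.62), ACSS2 (-1.67) and SCD (-1.83, lower in 11 of 11 cows), and the calls of FASN and ACSS2 were each lost in 5 of the 11 omissions of a cow (330, 341, 346, 360 and 382). Without cows 384 and 387, 10 of the 13 were called lower, again against 4.38% of all genes; the other 6 were ELOVL6, ELOVL5, IDH1, PGD, SLC25A1 and ACSL1. Of the 9 called genes of these related lists, an ordinary paired test called 3 (ACAA1, ANGPTL4 and SCD), and the omission of cows 330, 331, 341 and 382 called 0. Only 6 of 14410 probe sets over the whole array passed without those cows. The count of 0 is therefore not particular to these genes. The ordinary paired test also called fewer probe sets over the whole array than the 494 of the main test.

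**Figure D5:**
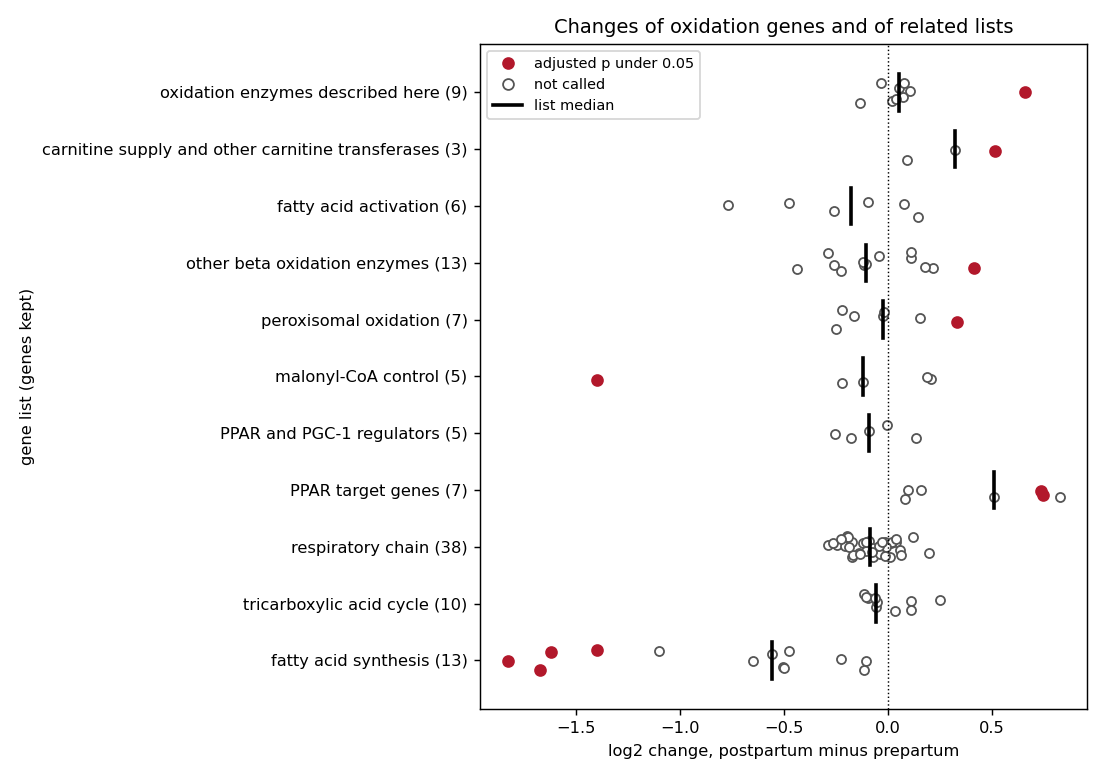
Log2 change, postpartum minus prepartum, of each tested gene of the oxidation enzymes described here (top row) and of 10 related lists, with called genes filled in red, other genes open and the list median as a black bar. In the top row 1 of 9 genes is filled (ACADVL, 0.66) and the median is 0.05, while the 4 filled genes of fatty acid synthesis lie between -1.83 and -1.40.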

How the data were processed

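Per the submitters' processing notes, MAS5 was used to summarise the 22 Affymetrix bovine arrays; no version or setting is given in the sources used here. The authors deposited signal intensities on a linear scale, and the trimmed mean of every array was 125. Of 24128 probe sets, 112 controls were left out. A single gene symbol was available for 13292, mostly through Entrez identifiers (RefSeq table of ARS-UCD2.0).

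Values were taken as log2(signal + 7.78), the constant being the median of the 22 arrays' 20th percentiles. This understates changes of dim genes. Probe sets with a mean in the upper range (40th percentile and above) were kept, 14410 in all, and a gene was represented by its brightest kept probe set. The test was limma's (3.58.1, R 4.3.3) with an intensity trend and cow as a fixed block, the pairing coming from the cow numbers and the series design. Samples of a cow deviated together in every pair but that labelled cow 387. The number of arrays limits the precision, and each cow gave 1 sample per time.

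The members and all lists were chosen with earlier results of these data known. Named genes were the members, every called gene and the 2 largest changes of each related list, and the 3 genes most correlated with ACADVL and CPT1B. Alternatives varied the block, pseudocount, filter, normalization, variance model, weights, array set, muscle covariate and cows. Figures used matplotlib 3.10.9 in Python 3.11.15.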

Additional observations from a re-analysis of the deposited data

Results flagged for a closer look

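Among the changes of the 10 oxidation probe sets, examined within each array set (20 groups of 5 or 6 cows), 3 held a cow far from the others, and chance alone gives about 5% of groups. All 3 were cow 384 in array set 2. The 20 groups hold the same cows and are not independent, so 3 of 20 cannot be read as an excess over 5%. Its CPT1B change was 2.78 log2 units, with the nearest other cow at 0.34. Its ACADM change was 1.11, with the nearest at 0.17. Its SLC25A20 change was 0.98, with the nearest at 0.14. The postpartum array of this cow had the highest skeletal muscle marker sum, 114624 against a postpartum median of 2173, and the part of muscle RNA in these values was not tested.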

How the results depend on the processing

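Against 494 probe sets for the postpartum effect, the ordinary paired test gave 291, array weights 1076, array set 2 alone 0, array set 1 alone 69, the omission of cows 384 and 387 1070, that of cows 384, 386 and 387 950, and that of cows 330, 331, 341 and 382 6; single omissions gave 242 to 969. The members called were 1, and 0 with the ordinary test, in either array set alone and without cows 330, 331, 341 and 382 (0 to 1 over single omissions). Without the replicate block 338 probe sets passed and with cow as a random effect 708, with ACADVL called each time; the pairing changed no member's call. The array set difference gave 0, and 11 without cows 384, 386 and 387, none of them a member (0 over single omissions). The array set level gave 2188, 1341 without cows 384, 386 and 387, 328 without cows 330, 331, 341 and 382, and 1349 to 2656 over single omissions.

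ACADVL kept its direction under every alternative run. The excess of its change over ACADM was 0.64 in array set 2 and 0.51 in array set 1, and over ACADS 0.68 and 0.71, with an adjusted p of 0.094 each in exact tests over 6 or 5 cows. Over 5 cows the smallest p is 0.0625, so no contrast could pass there whatever the values, and over 6 cows it is 0.031 before adjustment. Over single omissions these were 0.53 to 0.62 and 0.59 to 0.77, and ACADM over ACADS 0.05 to 0.17. The small changes of the other members crossed 0. CPT1B was -0.082 with array weights. Without cows 384 and 387 CPT1B was -0.082, CPT2 -0.0016, SLC25A20 -0.0033, HADHA -0.014 and HADHB -0.0018. With cow 386 left out too, CPT1B was -0.14, CPT2 -0.054, SLC25A20 -0.019, ACADM -0.013, HADHA -0.079, HADHB -0.037 and the second SLC25A20 probe set -0.0053. In array set 1 ACADM was -0.043, HADHA -0.092 and HADHB -0.018. ACADS was 0.14 in array set 2 and 0.028 without cows 330, 331, 341 and 382. Single omissions moved CPT1B from -0.16 to 0.20, CPT2 from -0.015 to 0.098, SLC25A20 from -0.016 to 0.11, ACADM from -0.027 to 0.13, ACADS from -0.081 to 0.0061, HADHA from -0.028 to 0.075, HADHB from -0.0039 to 0.10 and ACAA2 from -0.20 to 0.00042. Of the genes that are not members, IDH2 was -0.21 in array set 1. Of the 9 called genes of the related lists, the ordinary paired test lost 6 (adjusted p from 0.056 to 0.089), the fit without the block 3 (ACAD10, ACAA1 and PDK4), no filter 2 (ACAD10 and SLC22A5), the random effect 1 (ACAD10), and either array set alone or the omission of cows 330, 331, 341 and 382 all 9. The cause of these shifts was not tested.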
